A study of Mus musculus with 3 samples.

Results

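The genes of glycolysis and of the response to low oxygen were followed in NB490, a mouse pancreatic cancer cell line. The members were 22 metabolic genes, coding for glycolytic enzymes, their regulators and the glucose and lactate transporters, and 13 hypoxia response genes without a metabolic step of glycolysis. They were found by gene symbol, and all 35 were present among the 22658 gene models of each library. NB490 cells were selected with puromycin for stable carriage of a doxycycline-inducible shRNA against PDX1, a transcription factor of the pancreas, and all libraries came from these cells. The uninduced cells had 0 h of doxycycline, the second culture 48 h, and the third, called grown-out, stayed in the drug for over 3 weeks. Before harvest each culture took up bromouridine, at 2 mM, for 30 min, and the labelled RNA was captured with an antibody and sequenced (Bru-seq), so the reads come from RNA made in that window.

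Each of the 3 conditions had 1 library and no replicate. A difference below therefore compares libraries, its interval covers counting error alone, and no p-value was computed. No doxycycline control lacking the shRNA is used here, so effects of the drug and of the shRNA cannot be told apart. In these bulk cultures, fewer transcribing cells and less new RNA per cell cannot be told apart either. Levels are in RPKM, read counts divided by model length and by library size, with exact Poisson 95% intervals. Introns and exons are counted together. A ratio carries an exact conditional binomial 95% interval. A gene is called higher or lower beyond counting error where that interval excludes no change. It is called past a fold where, in addition, the log2 ratio of RPKM plus 0.05 reaches that fold, with 1.5-fold as the main size and 0.32 on the log2 scale as a smaller one. Measured genes are those averaging 0.5 RPKM or more across the 3 libraries.

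The read totals lay between 41632296 and 51006774, and 78.1% to 79.4% of reads fell in gene models. Pdx1, the shRNA's target, had 1.59 RPKM in uninduced cells, 1.05 at 48 h and 1.41 in the grown-out library, the order kept below wherever 3 values are given; an shRNA acts on finished mRNA, so this does not measure the knockdown. The keratin genes Krt8, Krt18 and Krt19 and the E-cadherin gene Cdh1 were transcribed, at 4.63 to 15.1 RPKM, whereas 2 other epithelial genes, Epcam and Cldn4, stayed at or under 0.0984 RPKM. Of markers of other cell types, none of the fibroblast, endothelial, erythroid, acinar and endocrine genes was measured, and their highest level was 0.229 RPKM. The 7 immune markers summed to 2.42, 1.37 and 1.37 RPKM in the same order; Cd68 and Cd14 were measured, Ptprc and Cd3e had at most 2 reads, and Csf1r was at 0. The 8 epithelial markers summed to 145, 78.8 and 74.95 RPKM, of which Spp1, the osteopontin gene, had 98.6, 40 and 32.3 RPKM. The part of these markers in the results was not tested.

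Glycolysis turns glucose into pyruvate, and lactate dehydrogenase then makes lactate, which leaves the cell through monocarboxylate transporters. When oxygen is low, the EGLN prolyl hydroxylases no longer mark HIF-1α for degradation, and HIF binds the core sequence ACGTG or GCGTG of hypoxia response elements near its target genes. Many glycolytic genes and genes of blood vessel growth, mitophagy, collagen synthesis and pH control are such targets. HIF-1α is controlled mainly at the protein, so transcription of Hif1a is not a measure of HIF activity. Pancreatic tumours are known for poor oxygen supply and a high rate of glycolysis; these cells were grown in culture, and no low-oxygen culture was part of the series.

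Of the 35 members, 22 were measured: 13 of the metabolic and 9 of the hypoxia genes. The other 13 lay below the minimum, 7 of them with at least 100 reads in every library. The most transcribed enzyme genes served the late steps of glycolysis. Pkm2, the pyruvate kinase gene (Pkm in RefSeq; chromosome 9, 59504415 to 59527182, plus strand), had 18.5 RPKM in the uninduced library (18.3 to 18.8), 13.7 after 48 h (13.5 to 13.9), and 19.4 in the grown-out library (19.1 to 19.7). Its whole gene model does not separate the M1 and M2 splice forms. Pgk1, for phosphoglycerate kinase, was listed at 18.6, 17.7 and 19.8 RPKM, but is scaled by 1801 bp of its 16576 bp span, so its level cannot be ranked against the other genes. Pgam1, for phosphoglycerate mutase, had 6.83, 8.36 and 7.88 RPKM. Ldha, for the A subunit of lactate dehydrogenase, had 6.63, 5.98 and 6.80 RPKM. Gapdh and Eno1, for glyceraldehyde phosphate dehydrogenase and enolase, had 3.22 to 4.89 RPKM.

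**Figure D1:**
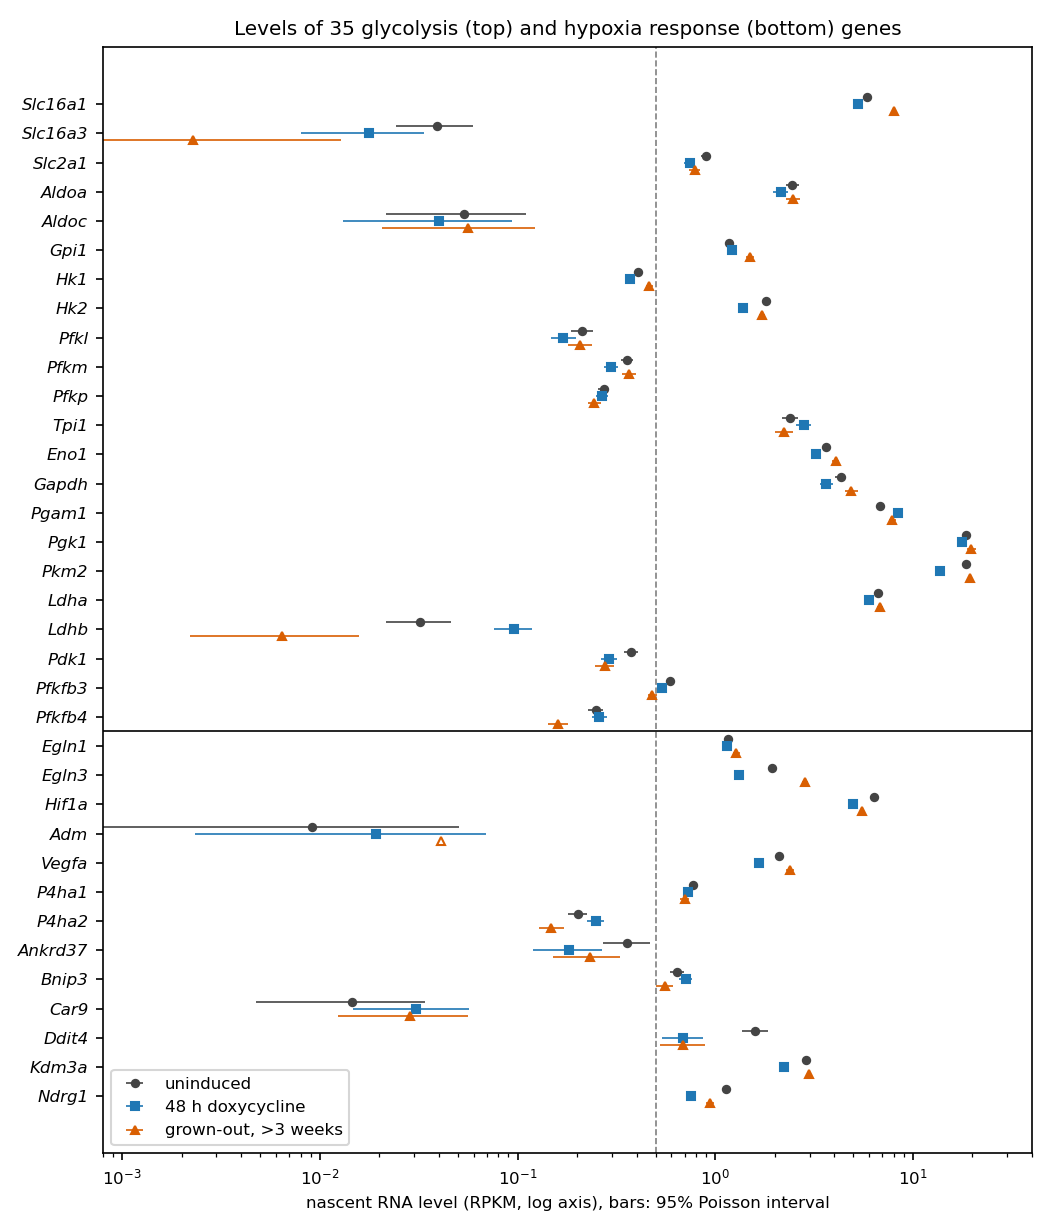
Nascent RNA level in RPKM on a log axis for each of the 35 members, metabolic genes above the line and hypoxia genes below it, in 1 library per condition, with 95% Poisson intervals as bars, some too short to see and some running off the left edge. The dashed line is the measured minimum of 0.5 RPKM, applied to the mean; the open triangle is the upper bound of Adm, which had 0 reads in grown-out cells. Pkm2 is the highest of the genes scaled by their whole span, and Ldhb, Slc16a3, Aldoc, Adm and Car9 lie at or under 0.0957 RPKM.

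At several steps a single isoform gene had most of the transcription. The hexokinase gene Hk2 was 4.45 times as high as Hk1 in RPKM in uninduced cells, 3.74 times at 48 h and 3.71 times in grown-out cells. Aldoa lay 44.0 to 53.2 times above Aldoc. Slc16a1, for the lactate transporter MCT1, had 5.85, 5.28 and 8.03 RPKM, while Slc16a3, for the hypoxia-inducible transporter MCT4, had 21, 9 and 1 reads in the same order. Ldhb, for the B subunit of lactate dehydrogenase, was likewise far below Ldha, on 29, 82 and 4.75 reads. The phosphofructokinase genes were an exception to this pattern, since Pfkm, Pfkp and Pfkl all lay between 0.171 and 0.368 RPKM in every library. Slc2a1, for the glucose transporter GLUT1, had 0.897, 0.741 and 0.786 RPKM, and Slc2a3, for GLUT3, had 0, 1 and 0 reads.

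Among the hypoxia genes, Hif1a itself was the most transcribed, at 6.37 RPKM uninduced (6.26 to 6.48), 4.98 after 48 h (4.88 to 5.08), and 5.51 in the grown-out library (5.39 to 5.62). Kdm3a, a histone demethylase gene, had 2.88, 2.23 and 2.98 RPKM, and Vegfa, for the vessel growth factor, 2.11, 1.67 and 2.39 RPKM. Car9, for the surface carbonic anhydrase often used as a hypoxia marker, had 5, 10 and 8 reads, and Adm, for adrenomedullin, 1, 2 and 0 reads. These 2 genes and Slc16a3, inducible by low oxygen in many cells, were thus near 0 in all libraries while Vegfa, Kdm3a and Egln3 were well transcribed.

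The start regions of the members often held the HIF core. The 250 bases before each start in RefSeq (GRCm38.p6) were searched for ACGTG and GCGTG on both strands; a CACGTG, the E-box read by Myc and the circadian factors, counts on both strands. Of 35 members, 34 had a window in the table, and in 32 of these a window held a core. The share of genes with a core was 41.5% over all 27025 genes of the table and 65.2% over the 6385 measured genes matched to it. Per window it was 80.0% for the members, 59.3% for measured genes and 38.6% for all; the median number of CG pairs per window was 14, 17 and 6. An E-box was present for 6 members, among them Ldha, Bnip3 and Slc16a1, or 17.6%, against 10.5% of measured genes and 6.86% of all genes. Gpi1 and Tpi1 had no core in their window. The windows of the measured members called past 1.5-fold in any comparison are shown because they belong to the results below, with every core in capitals, 5′ to 3′ on the gene's own strand. The Ddit4 window is chr10:59951771-59952020 on the minus strand, that of Egln3 chr12:54203875-54204124 on the minus strand, and that of Slc16a1 chr3:104638414-104638663 on the plus strand.
Ddit4: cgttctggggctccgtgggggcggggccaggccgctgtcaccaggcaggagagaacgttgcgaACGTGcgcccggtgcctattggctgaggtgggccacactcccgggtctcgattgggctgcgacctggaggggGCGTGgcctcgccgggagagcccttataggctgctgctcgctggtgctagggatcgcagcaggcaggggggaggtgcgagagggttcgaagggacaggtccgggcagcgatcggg
Egln3: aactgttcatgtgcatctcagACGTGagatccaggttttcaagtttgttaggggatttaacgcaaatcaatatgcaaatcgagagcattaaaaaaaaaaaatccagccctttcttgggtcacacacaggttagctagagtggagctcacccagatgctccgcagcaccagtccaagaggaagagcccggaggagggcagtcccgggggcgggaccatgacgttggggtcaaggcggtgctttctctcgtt
Slc16a1: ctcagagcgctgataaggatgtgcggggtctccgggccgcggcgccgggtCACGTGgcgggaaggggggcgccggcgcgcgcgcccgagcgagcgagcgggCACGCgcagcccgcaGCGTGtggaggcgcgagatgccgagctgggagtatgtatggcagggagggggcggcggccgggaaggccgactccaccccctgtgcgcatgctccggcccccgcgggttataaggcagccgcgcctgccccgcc
Ddit4 held 2 cores, at -187 and -115 relative to the start. Egln3 held 1, at -229. Slc16a1 held 4, and the first pair of them is an E-box. A match describes these letters and shows no binding in these cells.

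After 48 h of doxycycline, transcription of both the metabolic and the hypoxia genes was lower in the median, with the larger shift among the hypoxia genes. Of the 22 measured members, 15 were lower beyond counting error, against a background of 30.0% of all 7915 measured genes, and 2 were higher, against 30.1%. Past 0.32 on the log2 scale, 8 members were lower, against 10.0% of measured genes, and 0 higher, against 3.03%. The median log2 ratio was -0.35 for the 9 hypoxia members and -0.15 for the 13 metabolic members, beside 0.00 for all measured genes. Past 1.5-fold, 1 member was lower, against 3.27% of measured genes, and 0 were higher, against 0.379%. Hif1a made up 41.2%, 40.2% and 36.5% of the reads of the hypoxia members, and Pkm2 39.6%, 34.6% and 38.8% of those of the metabolic members.

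Among the transporters, Slc2a1 was 1.21-fold lower (1.11 to 1.32) and Slc16a1 1.11-fold lower (1.07 to 1.15) at 48 h. In upper glycolysis, Hk2, which commits glucose to the cell, was 1.30-fold lower (1.246 to 1.36) and Aldoa, for aldolase, 1.14-fold lower (1.02 to 1.29). The 2 measured metabolic members that went the other way serve different steps: Tpi1, for triose phosphate isomerase, was 1.18-fold higher (1.04 to 1.34), and Pgam1 1.22-fold higher (1.16 to 1.29). In lower glycolysis, Pkm2 was 1.35-fold lower (1.33 to 1.38), Gapdh 1.18-fold lower (1.07 to 1.31) and Eno1 1.13-fold lower (1.06 to 1.20). Between these libraries, the ratios of glycolytic genes thus ranged from lower to higher beyond counting error. Of all measured genes, 30.0% were lower and 30.1% higher in this way. Tpi1 and Pgam1, like Gapdh, Eno1, Aldoa, Ldha and Pgk1, have processed pseudogene copies that could share reads, and variation between cultures was not measured. Ldha was 1.11-fold lower (1.06 to 1.17), as was Pfkfb3, which makes the activator of phosphofructokinase, at 1.10-fold (1.04 to 1.16). For Gpi1, the phosphoglucose isomerase gene, and Pgk1, the intervals included no change.

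Ddit4 had the largest difference among the measured members. It encodes REDD1, an inhibitor of mTORC1 that responds to low oxygen and to other stresses. Its level was 1.59 RPKM in uninduced cells (1.36 to 1.85), 0.688 after 48 h (0.538 to 0.872), and 0.687 in the grown-out library (0.525 to 0.885). Both doxycycline libraries were low and their intervals overlapped, whereas neither overlapped that of the uninduced one. The ratio was 2.31-fold lower after 48 h (1.74 to 3.09), and 2.32-fold lower in the grown-out library (1.71 to 3.16). This short gene, of 2096 bp, rests on 170, 69.8 and 59.9 reads. The summed immune and epithelial markers given above were also lower in both doxycycline libraries. The largest falls in RPKM within these sums were those of Cd14, at 1.42, 0.451 and 0.469 RPKM, and of Spp1. Krt19 was lower too, at 13.6, 8.01 and 10.1 RPKM. Cd68 had 0.99, 0.92 and 0.90 RPKM, and Cdh1 4.81, 4.63 and 5.35 RPKM. The part of these markers in the Ddit4 difference was not tested.

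Ndrg1, a stress-induced gene, had 1.13, 0.756 and 0.943 RPKM. It was 1.499-fold lower at 48 h (1.404 to 1.60), at a log2 ratio of -0.55, just short of the call at 1.5-fold. Egln3, a prolyl hydroxylase gene that HIF induces, was 1.46-fold lower (1.37 to 1.56). Kdm3a was 1.29-fold lower (1.24 to 1.34), Hif1a 1.28-fold lower (1.245 to 1.31) and Vegfa 1.26-fold lower (1.17 to 1.36). The other 3 measured hypoxia members did not differ beyond counting error. Egln1, the main oxygen sensor gene of normal tissue, had 1.16 and 1.15 RPKM in the uninduced and 48 h libraries, Bnip3, a mitophagy receptor gene, 0.643 and 0.711 RPKM, and P4ha1, for a collagen prolyl hydroxylase subunit, 0.770 and 0.731 RPKM.

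**Figure D2:**
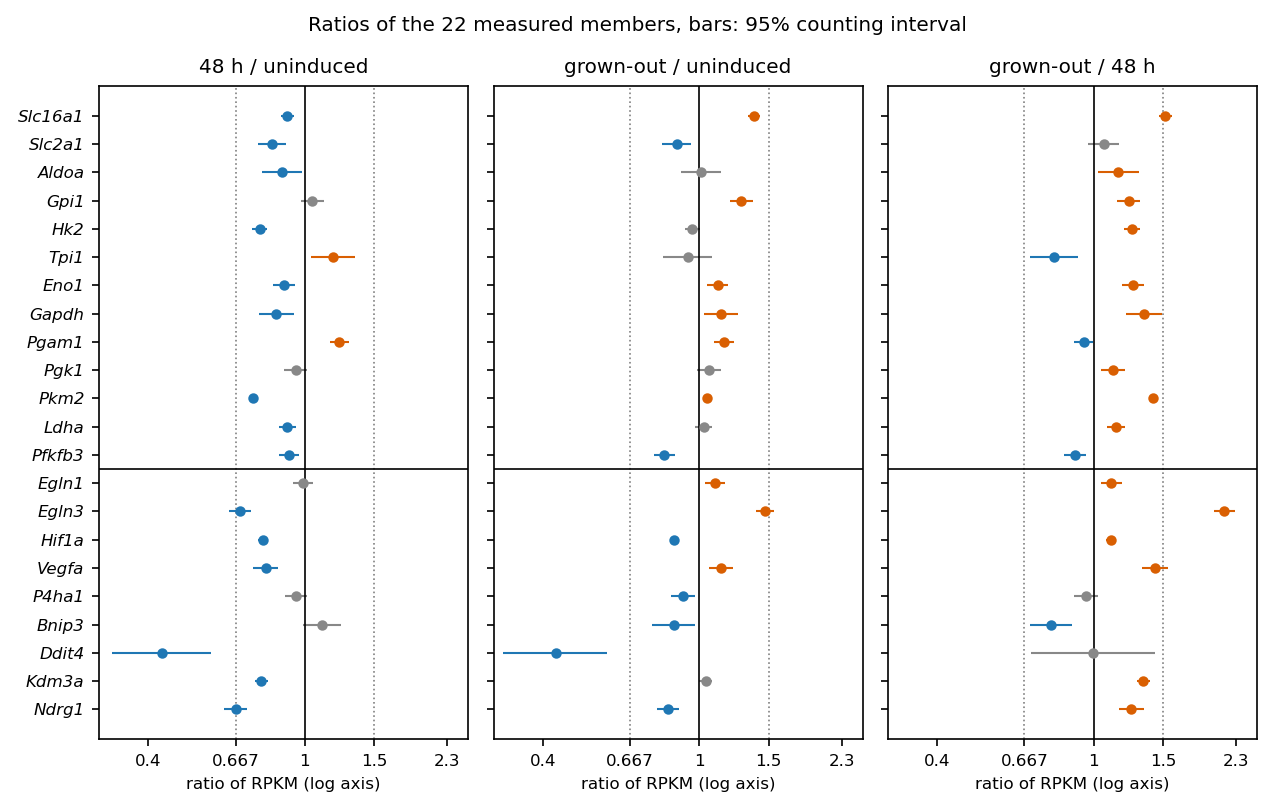
Ratio of RPKM between libraries on a log axis for the 22 measured members in each comparison, with 95% counting intervals as bars; orange is higher and blue lower beyond counting error, grey is neither, dotted lines mark 1.5-fold, and metabolic genes stand above the horizontal line. At 48 h most points lie left of 1, in grown-out cells they spread to both sides, and Ddit4 is low in both comparisons with the uninduced library, which share that library.

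In grown-out cells the measured members were close to their uninduced levels as a group. Of 22 measured members, 9 were higher beyond counting error, against 33.6% of measured genes, and 7 lower, against 29.5%. Past 0.32 on the log2 scale, 3 were higher, against 7.04%, and 1 lower, against 9.36%. These shares beyond counting error lie near the background. Over all 35 members, with no minimum, 10 were higher and 13 lower beyond counting error, against 3266 and 4180 of all 22520 genes. Past 0.32 on the log2 scale, 3 of the 35 were higher and 6 lower, against 873 and 1877 of these genes. The median log2 ratio was 0.06 for the metabolic and -0.13 for the hypoxia members, beside 0.01 for all measured genes; over the 4 hypoxia members that average 2 RPKM or more it was 0.12. Ddit4 was lower past 1.5-fold, against 2.93% of measured genes, and 0 members were higher past it, against 1.07%.

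Slc16a1 and Gpi1 were the measured metabolic members higher past 0.32 on the log2 scale, and 0 were lower past it. Slc16a1 (chromosome 3, 104442591 to 104462385, plus strand) was 1.37-fold higher (1.33 to 1.42), and Gpi1, at 1.17, 1.22 and 1.498 RPKM, was 1.28-fold higher (1.20 to 1.37). The lower glycolysis genes leaned up by small amounts: Pgam1 was 1.15-fold, Gapdh 1.14-fold, Eno1 1.12-fold and Pkm2 1.05-fold higher, each beyond counting error, and Pgk1 was not. Slc2a1 was 1.14-fold lower (1.05 to 1.24) and Pfkfb3 1.23-fold lower (1.15 to 1.31), at 0.590, 0.537 and 0.481 RPKM. For Hk2, Aldoa, Tpi1 and Ldha the intervals included no change. Of the hypoxia members, Egln3 was 1.47-fold higher (1.39 to 1.55), Vegfa 1.14-fold higher and Egln1 1.10-fold higher. Besides Ddit4, those lower beyond counting error were Ndrg1 at 1.20-fold, Bnip3 at 1.16-fold, Hif1a at 1.16-fold (1.13 to 1.19) and P4ha1 at 1.10-fold. Kdm3a was at 2.98 against 2.88 RPKM.

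The third comparison was of grown-out with 48 h cells; both libraries already served above, so a member low at 48 h tends to come out high here. Of the 22 measured members, 15 were higher beyond counting error, against 35.6% of measured genes, and 4 lower, against 32.0%. Past 0.32 on the log2 scale, 7 were higher, against 12.6%, and 2 lower, against 8.69%. Past 1.5-fold, 2 were higher, against 3.59% of measured genes, and 0 lower, against 2.25%. Egln3 had 1.93 RPKM uninduced (1.85 to 2.01), 1.32 after 48 h (1.26 to 1.39), and 2.83 in the grown-out library (2.73 to 2.94), with no overlap of the intervals. It was the lowest at 48 h and the highest in grown-out cells, 2.15-fold apart (2.02 to 2.29). Its sister gene Egln1 differed by 1.11-fold. The level of Egln3 was therefore 1.66 times that of Egln1 in uninduced cells, 1.15 times at 48 h and 2.22 times in grown-out cells. Slc16a1 was 1.52-fold higher (1.47 to 1.58) than at 48 h, and no longer past 1.5-fold with a pseudocount of 0.5.

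Vegfa was 1.43-fold higher (1.33 to 1.54) than at 48 h, Pkm2 1.41-fold (1.38 to 1.45), Gapdh 1.34-fold (1.21 to 1.49) and Kdm3a 1.34-fold (1.29 to 1.39). Bnip3 and Tpi1 went the other way, at 1.28-fold (1.13 to 1.45) and 1.26-fold (1.10 to 1.45) lower, and Pgam1 and Pfkfb3 were lower by 1.06-fold and 1.12-fold. Tpi1 and Pgam1 were thus the 2 measured metabolic members higher than uninduced at 48 h and lower in grown-out than in 48 h cells beyond counting error.

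The 13 members below the minimum are given without counts of calls. Pdk1, for the kinase that turns pyruvate dehydrogenase off, had 0.374, 0.291 and 0.276 RPKM and was 1.29-fold (1.14 to 1.46) and 1.36-fold (1.19 to 1.56) lower than uninduced at 48 h and in grown-out cells. Pfkfb4, an isoform of Pfkfb3, had 0.248, 0.259 and 0.161 RPKM and was 1.55-fold lower in grown-out cells (1.33 to 1.796). P4ha2, a second collagen prolyl hydroxylase gene, had 0.202, 0.249 and 0.148 RPKM, 1.23-fold higher after 48 h (1.06 to 1.43), and 1.36-fold lower in the grown-out library (1.13 to 1.64). Pdk1 was low in both doxycycline libraries, whereas Pfkfb4 was low in grown-out cells and P4ha2 lay on either side of its uninduced level. Ankrd37, a short HIF target gene, had 54, 26 and 28.5 reads and was 1.97-fold lower at 48 h (1.21 to 3.28). Hk1 had 0.405, 0.369 and 0.465 RPKM and Pfkm 0.358, 0.298 and 0.368 RPKM, both lower at 48 h, by 1.10-fold and 1.20-fold. In grown-out cells Hk1 was 1.15-fold higher than uninduced (1.08 to 1.22). Pfkl had 0.212, 0.171 and 0.208 RPKM and was 1.24-fold lower at 48 h (1.02 to 1.51). Pfkp had 0.274, 0.268 and 0.244 RPKM and was 1.12-fold lower than uninduced in grown-out cells (1.015 to 1.24).

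Ldhb was 2.98-fold higher after 48 h (1.93 to 4.72), and 4.98-fold lower in the grown-out library (1.81 to 15.7), on few reads. Its level was 0.0321 RPKM uninduced (0.0215 to 0.0461), 0.0957 after 48 h (0.0761 to 0.119), and 0.00645 in the grown-out library (0.00220 to 0.0158). The intervals did not overlap, and the 48 h library was the highest. Slc16a3 was 17.1-fold lower in grown-out than in uninduced cells, on 1 read, with an interval of 2.76 to 709. Aldoc had 5 to 7 reads in each library, and Car9 and Adm did not differ beyond counting error.

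Genes around the members, from lists that hold none of them, differed in several ways at 48 h. The other hypoxia targets were lower too. Of 25 measured among 38, 17 were lower beyond counting error, against 30.0% of measured genes, and 2 higher, against 30.1%. The median log2 ratio of this list was -0.25. Bhlhe40, a transcriptional repressor of the clock and of hypoxia, had 5.97, 2.40 and 2.74 RPKM and was 2.49-fold lower at 48 h (2.29 to 2.72). Errfi1, an inhibitor of EGF receptor signalling, had 28.5, 15.7 and 12.4 RPKM and was 1.82-fold lower (1.77 to 1.86). Ccng2, for cyclin G2, was 1.84-fold lower (1.70 to 2.00). All 3 respond to other signals besides low oxygen, and they were also lower than uninduced in grown-out cells, at 2.18-fold, 2.302-fold and 1.36-fold. Loxl2, a collagen crosslinking enzyme gene, was 2.15-fold lower in grown-out cells (2.01 to 2.297). Against uninduced, the grown-out library had 10 of these 25 higher and 11 lower beyond counting error, against 33.6% and 29.5% of measured genes, and the median was 0.10. Past 1.5-fold, 5 were lower, against 2.93%.

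The signalling machinery of HIF had both higher and lower genes at 48 h. The list covers HIF partners, the VHL ligase and coactivators, and also holds Egln2, Hif1an, Cited2 and Hsp90ab1. Of its 12 measured genes, 6 were higher, against 30.1% of measured genes, and 2 lower, against 30.0%. The median log2 ratio was 0.07. Hsp90ab1 was among the higher genes and Egln2 among the lower ones. Over all 16 genes of the list, with no minimum, 6 were higher and 5 lower, against 3119 and 3595 of all 22520 genes. Arntl and Arnt2, 2 ARNT relatives below the minimum, were 1.47-fold and 1.21-fold lower. Arnt, the partner of HIF-1α, had 2.91, 3.17 and 2.83 RPKM and Vhl 1.93, 1.78 and 1.77 RPKM. Epas1, which encodes HIF-2α and was below the minimum, had 50, 8 and 11 reads, and Egln2, the remaining EGLN gene, 0.765, 0.573 and 0.838 RPKM. In grown-out cells 5 of the 12 measured were higher, against 33.6% of measured genes, and 2 lower, against 29.5%, with a median of 0.03.

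Downstream of glycolysis, the genes of the tricarboxylic acid cycle leaned the other way at 48 h. All 18 were measured, 11 were higher beyond counting error, against 30.1% of measured genes, 2 were lower, against 30.0%, and the median log2 ratio was 0.14, against -0.15 for the metabolic members. Mdh2, for mitochondrial malate dehydrogenase, had 1.96, 2.51 and 2.03 RPKM. In grown-out cells 12 of the 18 were higher, against 33.6%, and 1 lower, against 29.5%, with the same median of 0.14. Of 10 measured genes for the entry of pyruvate, 4 were higher and 3 lower at 48 h, near the 30.1% and 30.0% of all measured genes, and 2 and 2 in grown-out cells, against 33.6% and 29.5%. Pdk3, another pyruvate dehydrogenase kinase gene, had 0.850, 1.24 and 0.664 RPKM, whereas Pdp2, for a phosphatase with the opposite action, had 1.10, 0.794 and 0.634 RPKM.

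**Figure D3:**
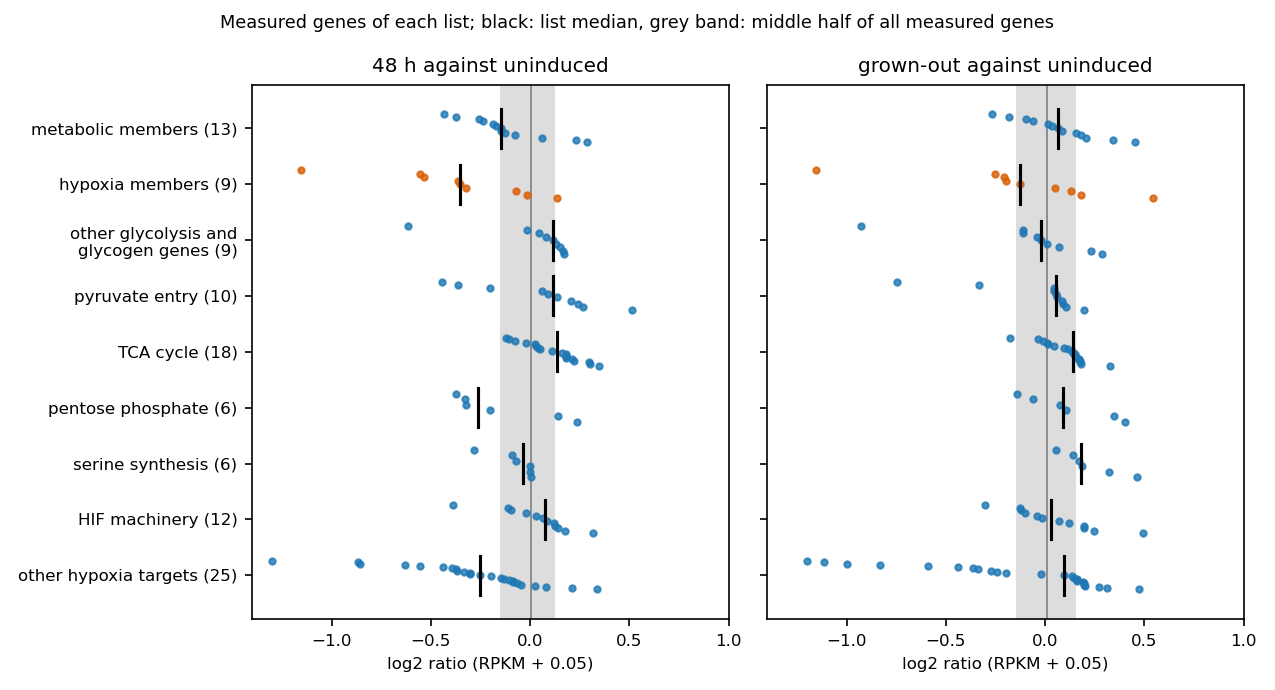
Log2 ratio of RPKM plus 0.05 against the uninduced library for each measured gene of the 2 member sets and of 7 neighbouring lists, with the number of genes in brackets, the hypoxia members in orange, list medians as black bars, all-gene median as the grey line and the span from the lower to the upper quartile of all measured genes as the grey band. At 48 h the medians of the hypoxia members, the other hypoxia targets and the pentose phosphate genes lie left of the band, that of the metabolic members, at -0.15, at its edge, and the tricarboxylic acid cycle median, at 0.14, just right of it.

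The other isoforms and side steps of glycolysis and glycogen had 9 measured genes of 31; 5 were higher and 1 lower at 48 h, against 30.1% and 30.0% of measured genes, with a median log2 ratio of 0.11. The shares for grown-out cells, here and for the next lists, are 33.6% higher and 29.5% lower. The lower one was Bpgm, for the enzyme that makes 2,3-bisphosphoglycerate, at 2.23, 1.44 and 1.15 RPKM, 1.55-fold lower after 48 h (1.47 to 1.64), and 1.94-fold lower in the grown-out library (1.83 to 2.07). In grown-out cells 2 of the 9 were higher and 2 lower, with a median of -0.02. Of 6 measured pentose phosphate genes, 4 were lower and 1 higher at 48 h, against 30.0% and 30.1% of measured genes, with a median of -0.26, and 1 lower and 2 higher in grown-out cells, with a median of 0.09. Pgd, for phosphogluconate dehydrogenase, had 1.63, 1.247 and 1.76 RPKM, and G6pdx, which opens the pathway, 2.07, 1.64 and 1.87 RPKM. Of the 6 genes that make serine and one-carbon units from a glycolytic intermediate, 3 were lower and 0 higher at 48 h, against 30.0% and 30.1%, with a median of -0.04, and 0 lower and 4 higher in grown-out cells, with a median of 0.18; Psat1, an aminotransferase gene of this route, had 7.49, 7.12 and 10.3 RPKM. Of 7 gluconeogenesis genes Pck2 was measured, at 0.844, 0.798 and 0.788 RPKM, while Fbp1 and G6pc were at 0 reads.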

How the data were processed

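Bru-seq measured nascent RNA in 3 libraries, 1 per condition. Bedtools 2.16.2, TopHat 1.4.1, Bowtie 0.12.8 and CASAVA 1.8.2 are the tools in the submitters' processing notes; their settings are not given in the sources used here. Deposited estimated counts are, per the file headers, reads per whole gene model, partly fractional. The deposited RPKM values are, per the file headers, these counts scaled by the deposited model length and the library's read total. A deposited signal column of reads per base was not used. The notes name human build hg19, but the models carry mouse symbols, and 313 of 20046 models start within 10 bp of the GRCm38 start, so coordinates are printed as deposited and the build is unknown here. Counting followed strand as far as 26 oppositely nested models show, whose median read density was 0.00109 of the host's.

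The members, lists and call sizes were chosen with earlier results of these data known. Models with a repeated symbol or a span over 3 Mb (138) and those under 300 bp were left out of the comparisons, and 7915 genes then passed the minimum of 0.5 RPKM. Ratios used log2(RPKM + 0.05), which understates changes of low genes; intervals used counts rounded to whole reads (Python 3.11.15, scipy 1.17.1) and cover counting error only, since reads were not counted by molecular identifiers. The calculation was tested on simulated counts that held counting error alone, so that test cannot speak to variation between cultures. All members are named. Of the 8 neighbouring lists, genes past 1.5-fold in a comparison were named, at most 4 per list, besides others given as values and chosen after their values were seen. Genes with processed pseudogene copies (Gapdh, Pgk1, Ldha, Eno1, Aldoa, Tpi1, Pgam1) are uncertain where reads could be shared. Alternatives were the pseudocount, the expression minimum, TMM scaling (edgeR 4.0.16), DESeq2 1.42.0 size factors, the fold size and leaving out overlapping models.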

Additional observations from a re-analysis of the deposited data

Results flagged for a closer look

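Among all 35 members and the neighbouring genes named for passing 1.5-fold, Egln3, Ldhb and Pdk3 lay at least 0.32 on the log2 scale of plain RPKM ratios on opposite sides of the uninduced level in the doxycycline libraries, beyond counting error on both sides. With 1 library per condition the difference between the doxycycline conditions was not tested. Egln3 was low at 48 h and high in grown-out cells, and its log2 ratio of grown-out to 48 h was 1.07. Ldhb was high at 48 h and low in grown-out cells, at -1.37, on 82 and 4.75 reads. Pdk3 went the same way as Ldhb, at -0.85. Pdk4 and Rora, neighbouring genes below the expression minimum and so outside that search, met the same rule. Pdk4 had 144, 205 and 55.8 reads, and Rora 32, 83 and 9 reads, both high at 48 h and low in grown-out cells. Of all 7915 measured genes 77, or 0.973%, met the same rule, and of the 22 measured members 1, Egln3.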

How the results depend on the processing

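No paired analysis was possible because each condition had 1 library. The medians of the metabolic and the hypoxia members kept their sign in all 3 comparisons under a pseudocount of 0.5, no minimum, TMM scaling, DESeq2 size factors and without Pgk1, the measured member whose model overlaps another on its strand. TMM and DESeq2 scaling moved the ratios by 0.01 to 0.04 on the log2 scale. With a mean RPKM of at least 2, which kept 4 hypoxia members, their median turned to 0.12 in grown-out against uninduced cells and moved to 0.46 against 48 h, and 0 were called lower than uninduced at 48 h or in grown-out cells, since Ddit4 was no longer included. With no minimum, Ldhb was added as 1 higher metabolic member and Ankrd37 brought the lower hypoxia members to 2 at 48 h; 1 metabolic member (Slc16a3) was lower in grown-out than uninduced cells, and 1 of each set (Ldhb, P4ha2) than at 48 h. A smaller size of 0.32 on the log2 scale called 2 metabolic and 6 hypoxia members lower at 48 h, against 10.0% of measured genes. In grown-out against uninduced cells this size called 2 and 1 higher, against 7.04%, and 0 and 1 lower, against 9.36%. Between grown-out and 48 h cells it called 4 and 3 higher in grown-out cells, against 12.6%, and 1 and 1 lower, against 8.69%. Slc16a1 against 48 h was lost under a pseudocount of 0.5 and a fold of 2, leaving 0 metabolic members. Bpgm at 48 h, and Loxl2 and Pdp2 in grown-out cells, were no longer past 1.5-fold with a pseudocount of 0.5, nor was Pdk3 between the doxycycline libraries. Depth limits Car9, Adm, Aldoc, Slc16a3 and Ldhb.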
